A study of Mus musculus with 22 samples.

Results

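The genes for 6 cytosolic aminoacyl-tRNA synthetases, Yars, Wars, Mars, Gars, Aars and Hars, were followed in whole mouse spinal cord by RNA sequencing. They were chosen, with earlier results of these data known, because dominant variants of their human counterparts are linked to peripheral neuropathy, and because Yars itself carried the E196K change in these mice. Each was found by its Ensembl gene ID, so the group holds 6 of the 38924 gene IDs measured, beside 15 other cytosolic and 17 mitochondrial synthetase genes, and all 6 passed the filter on low counts. Polyadenylated RNA was measured in 22 libraries from mice aged 7 months on a B6N;B6J background. E196K/E196K mice carried the E196K change on both copies of Yars (10 libraries), E196K/+ mice on a single copy (6 libraries), and WT mice carried none (6 libraries). The labels give no sex. In E196K/E196K cords the 6 transcripts lay between 3.35% and 12.3% above WT cords on average, and the rise of Wars was the only one that passed edgeR's quasi-likelihood test over all genes; DESeq2 called Wars and Aars. In E196K/+ cords the 6 transcripts differed from WT by between -1.14% and 3.35%, and none passed.

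An aminoacyl-tRNA synthetase joins an amino acid to the transfer RNAs that carry its codons, and the ribosome depends on this charging step for every residue it adds. The enzymes fall into 2 structural classes: those for tyrosine, tryptophan and methionine belong to class I, and those for glycine, alanine and histidine to class II. Every cell needs them, yet dominant variants in these enzymes are known in people for damage to long peripheral axons. Several synthetase genes are also known to be switched on by ATF4, a transcription factor induced in the integrated stress response. The kinase GCN2 can start that response when it senses uncharged transfer RNA or stalled ribosomes, and other kinases can start it too. A change of an amino acid in a protein does not by itself fix the level of its messenger RNA, so the Yars level is no check of the genotype labels.

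The site of the E196K change and the starts of the genes are shown first, because the genotypes differ at that site and because ATF4 is known to act on several synthetase genes near their starts. Yars lies on chromosome 4 at 129189760 to 129219607, plus strand (GRCm38, GENCODE M21, gene ENSMUSG00000028811). Its coding transcript in M21 has 564 codons in 13 exons, and an in-frame ATG stands at codon 37, from which 528 codons remain. Counted from that ATG, the codon that E196K names was GAG, a glutamate codon, at chr4:129206204-129206206 in exon 5, which a change to lysine would replace. Counted from the outer ATG, the codon of the same number was TTG, which does not encode glutamate, so the shorter frame was used for the numbering. The reference coding bases of codons 186 to 206 run from exon 5 into exon 6, with the named codon in capitals.

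Yars codons 186 to 206: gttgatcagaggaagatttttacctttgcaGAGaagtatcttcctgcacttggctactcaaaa

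RefSeq promoter windows (GRCm38.p6) were used for 4 of the 6 genes. Wars had none in the table, and Hars was left out of the search. Each window held 250 bases before to 50 bases after the RefSeq start of the gene. They were searched on both strands for TGATGNAA, the core of the composite element to which ATF4 binds with a C/EBP partner, and for CCAAT. The stretches from 150 bases before to 20 bases after each start are printed in the direction of transcription, with matches to TGATGNAA or its reverse complement TTNCATCA in capitals. They lie at chr4:129189753-129189922 (Yars, plus strand), chr10:127311767-127311936 (Mars, minus strand), chr6:55037851-55038020 (Gars, plus strand) and chr8:111033692-111033861 (Aars, plus strand).

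Yars promoter: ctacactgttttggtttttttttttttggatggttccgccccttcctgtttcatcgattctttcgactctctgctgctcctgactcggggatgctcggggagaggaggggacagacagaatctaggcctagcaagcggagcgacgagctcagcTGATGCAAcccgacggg

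Mars promoter: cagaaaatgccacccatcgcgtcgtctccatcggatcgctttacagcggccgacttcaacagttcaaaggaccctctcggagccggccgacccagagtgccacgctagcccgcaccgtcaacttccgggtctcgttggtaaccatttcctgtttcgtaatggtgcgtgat

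Gars promoter: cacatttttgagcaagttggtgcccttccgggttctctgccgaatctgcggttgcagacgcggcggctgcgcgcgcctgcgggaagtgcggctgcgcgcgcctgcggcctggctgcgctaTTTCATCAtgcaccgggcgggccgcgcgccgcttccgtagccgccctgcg

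Aars promoter: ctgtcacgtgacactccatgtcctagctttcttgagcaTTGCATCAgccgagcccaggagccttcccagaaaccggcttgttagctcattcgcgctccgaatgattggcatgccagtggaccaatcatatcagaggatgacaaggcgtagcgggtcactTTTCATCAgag

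The TGATGNAA letters were present in the windows of Yars (1 match), Gars (1 match) and Aars (2 matches), and in none of the 300 bases of the Mars window. In Yars the match began 3 bases after the start, in Gars 30 bases before it, and in Aars 112 bases before and 9 bases after it. Among all 32851 windows in the table, 1304 (3.97%) held such a match. Counted by gene, a match was found for 2 of the 10 other cytosolic synthetases with a window (Iars and Tars). It was found for 0 of the 14 mitochondrial synthetases and 10 of the 30 listed ATF4 targets with a window. The counts by gene left out chromosome 18, which the count over all windows kept. Hars lies on that chromosome, so whether it has a window or a match was not examined. CCAAT, a motif of 5 letters that many promoters hold (37.4% of all windows), occurred 5 times in the Aars window, once in each of those of Yars and Mars, and not in that of Gars. These are matches of letters, with no measurement of binding.

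Each deposited table gave an expected count per gene, in which the counting program divides a read among all the transcripts it fits. Rounded totals per library lay between 24.45 M and 42.81 M. The 6 genes were well covered, from 1301 counts for Mars in its shallowest library to 11005 for Aars in its deepest. Levels are given as CPM, counts scaled to a common library total, where genotypes are compared for a single gene, and as TPM, which also divides by transcript length, where genes are compared with each other. Fold changes came from edgeR's quasi-likelihood test on all 22 libraries and 16974 genes, and a gene was called at a Benjamini-Hochberg adjusted p under 0.05 over all of them. No label states that each library is from its own animal, and the p-values therefore refer to library-to-library spread alone. In whole cord, fewer cells of a type and less RNA per cell cannot be told apart.

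Markers of the cells of spinal cord were present throughout, with summed levels of 5 neuron markers between 2551 and 3219 CPM and of 4 oligodendrocyte markers between 12850 and 19460 CPM. E196K/E196K replicate 3 stood apart. The 4 Schwann cell markers counted here summed to 615.0 CPM in it, against at most 3.58 CPM in every other library, led by Prx (500.0 CPM). Fibroblast markers summed to 435 CPM there, against at most 59.3 CPM elsewhere, and its neuron, astrocyte, oligodendrocyte and motor neuron sums were the lowest of all 22 libraries. It also had the lowest level of its genotype for Yars, Wars, Gars, Aars and Hars, and the 4th lowest for Mars. The part of that tissue in the values was not tested, and the fold changes of the 6 genes over WT are given with and without this library. Library titles carry 1 of 3 prefixes (39992, 40411 and 40412) with no stated meaning. The prefix 39992 held 5 E196K/E196K libraries and 1 WT library, 40411 held 3 E196K/E196K, 1 E196K/+ and 2 WT libraries, and 40412 held 2, 5 and 3.

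Yars encodes the enzyme for tyrosine. Its level in E196K/E196K cords ran from 108.6 through a median of 122.4 to 129.0 CPM, in E196K/+ cords from 110.3 through 113.0 to 122.6 CPM, and in WT cords from 108.7 through 113.7 to 118.0 CPM. The groups overlapped, with 8 of 10 E196K/E196K libraries above the highest WT library and replicate 3 below the lowest. The log2 fold change of E196K/E196K over WT was 0.10 (SE 0.0332, 95% interval 0.03 to 0.17, p = 0.00639), and it did not pass over all genes (adjusted p = 0.643). Without replicate 3 it was 0.12 (adjusted p = 0.213). S100pbp, which starts 32 bases away on the other strand, had a log2 fold change of -0.05 (adjusted p = 0.829), and C77080, whose 3′ end overlaps that of Yars by 30 bases, one of 0.00 (adjusted p = 0.996).

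Wars, the gene for the tryptophan enzyme (chromosome 12, 108860030 to 108894174, minus strand, ENSMUSG00000021266), gave the clearest difference. Its level ran from 124.8 through a median of 138.0 to 144.6 CPM in E196K/E196K cords, from 117.3 through 125.5 to 129.7 CPM in E196K/+ cords, and from 116.2 through 122.7 to 128.1 CPM in WT cords. In E196K/E196K cords 9 of 10 libraries lay above the highest WT library and above the highest E196K/+ library, and replicate 3 was the exception in both. Wars rose in E196K/E196K cords by a log2 fold change of 0.17 over WT (SE 0.0316, 95% interval 0.10 to 0.23, adjusted p = 0.0209), which is 12.3% (95% interval 7.34% to 17.5%). It ranked 15 by p among the 16974 genes, of which 0.0943% were called in either direction. Over E196K/+ the log2 fold change was 0.15 (SE 0.0316, p = 9e-05, adjusted p = 0.0588). Without replicate 3 the values were 0.18 over WT (adjusted p = 0.00138) and 0.16 over E196K/+ (adjusted p = 0.00795), both past the threshold. The call over WT was kept in 22 of 34 alternatives, DESeq2 among them (adjusted p = 0.000232). The alternatives include fits without an E196K/+ library, which enters this comparison only through the shared estimate of spread, and all of those kept the call. Fits of edgeR without the filter on low counts, in prefixes 40411 and 40412 alone or with only the groups compared lost it, as did limma on TPM (adjusted p between 0.0527 and 0.115). The call was also lost when E196K/E196K replicate 1, 4 or 5 or WT replicate 2, 3 or 5 was left out, with adjusted p between 0.0559 and 0.136, and under a fit with the title prefix as a term (log2 fold change 0.15, adjusted p = 0.112). The differences within the prefixes were 0.12 in 39992, 0.19 in 40411 and 0.13 in 40412. Wdr25, which overlaps Wars by 544 bases on the other strand, had a log2 fold change of 0.00 (adjusted p = 0.991).

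**Figure D1:**
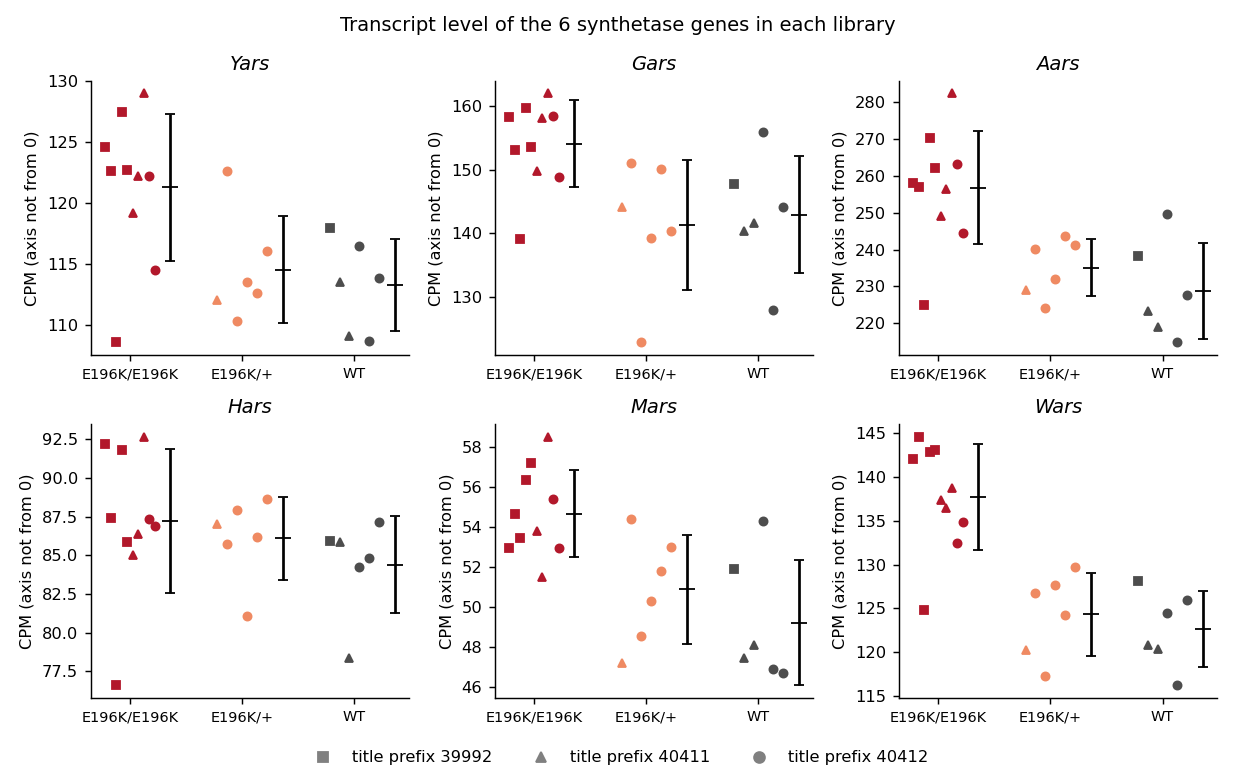
Level of each of the 6 genes in every library, in CPM on axes that do not start at 0, with E196K/E196K left, E196K/+ in the middle and WT right; point shapes give the title prefix, and bars give the mean and SD. For Wars, 9 of the 10 E196K/E196K libraries lie above every WT library. For Hars and for Yars, the WT range lies within the E196K/E196K range.

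Mars encodes the enzyme for methionine, a subunit of the multi-synthetase complex (chromosome 10, 127296221 to 127311786, minus strand, ENSMUSG00000040354). Its level ran from 51.5 through a median of 54.2 to 58.5 CPM in E196K/E196K cords, from 47.2 through 51.1 to 54.4 CPM in E196K/+ cords, and from 46.7 through 47.8 to 54.3 CPM in WT cords. All 10 E196K/E196K libraries lay above the WT mean and 5 of them above the highest WT library. The log2 fold change of E196K/E196K over WT was 0.15 (SE 0.0379, 95% interval 0.07 to 0.23, p = 0.000516, adjusted p = 0.258), so Mars did not pass over all genes. Without replicate 3 it was 0.16 (adjusted p = 0.214). Ddit3, the gene for the stress factor CHOP, overlaps the end of Mars by 68 bases on the other strand. It averaged 15.5 ± 1.33 CPM in E196K/E196K cords and 13.6 ± 0.994 CPM in WT cords (SD, n = 10 and 6; log2 fold change 0.20, SE 0.0576, adjusted p = 0.547). The strand setting of the counting is not given, so reads in that overlap cannot be assigned to either gene with certainty.

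Gars encodes the enzyme for glycine in both the cytosol and the mitochondria (chromosome 6, 55038007 to 55079500, plus strand, ENSMUSG00000029777). Its level ran from 139.2 through a median of 155.8 to 161.9 CPM in E196K/E196K cords, from 123.0 through 142.3 to 151.0 CPM in E196K/+ cords, and from 128.0 through 142.9 to 155.9 CPM in WT cords. It was the most variable of the 6 within a genotype, with an SD of 0.0859 on the log2 CPM scale. The log2 fold change of E196K/E196K over WT was 0.11 (SE 0.0423, 95% interval 0.02 to 0.20, p = 0.0173, adjusted p = 0.815), with 5 of 10 libraries above the highest WT library. Without replicate 3 it was 0.12 (adjusted p = 0.541). The 2 lowest libraries for Gars were E196K/+ replicate 3 and WT replicate 5.

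Aars, for alanine, had the highest counts of the 6, although not the highest level per length (chromosome 8, 111033144 to 111057664, plus strand, ENSMUSG00000031960). Its level ran from 225.1 through a median of 257.5 to 282.3 CPM in E196K/E196K cords, from 224.2 through 236.1 to 243.6 CPM in E196K/+ cords, and from 214.9 through 225.4 to 249.6 CPM in WT cords. All E196K/E196K libraries but replicate 3 lay above the highest E196K/+ library, and 7 of 10 lay above the highest WT library. The log2 fold change over WT was 0.17 (SE 0.0389, 95% interval 0.09 to 0.25, p = 0.000244), as large as that of Wars but with a wider spread, and Aars did not pass (adjusted p = 0.164). Without replicate 3 it was 0.19 and passed (adjusted p = 0.0101), and DESeq2 on all libraries also called it (0.16, adjusted p = 0.0239). The gene Exosc6 lies within the Aars locus on the same strand in GENCODE M21 and had no row matched here, so its reads may be counted with Aars.

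Hars, for histidine, showed the smallest difference (chromosome 18, 36766528 to 36783205, minus strand, ENSMUSG00000001380). Its level ran from 76.6 through a median of 87.1 to 92.7 CPM in E196K/E196K cords, from 81.1 through 86.6 to 88.6 CPM in E196K/+ cords, and from 78.4 through 85.3 to 87.1 CPM in WT cords. The groups overlapped, with 5 of 10 E196K/E196K libraries above the highest WT library, and the log2 fold change of E196K/E196K over WT was 0.05 (SE 0.0345, 95% interval -0.02 to 0.12, adjusted p = 0.819). It was 0.07 without E196K/E196K replicate 3 (adjusted p = 0.726) and 0.03 without WT replicate 3. On the log2(TPM + 1) scale it was 0.08, where the median of all tested genes was 0.0373. The upper end of that interval, 8.57%, lies below the 12.3% estimated for Wars; the difference between the genes was not tested. Hars2, the mitochondrial histidine enzyme, starts within Hars on the other strand and overlaps it by 198 bases, with a log2 fold change of 0.03 (adjusted p = 0.841). The count of Hars, as printed in the deposited tables, was a whole number in 0 of 22 libraries and that of Yars in 1, while those of the other 4 were whole in all 22; which other genes share those reads was not tested.

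Counted together, all 6 genes were higher in E196K/E196K than in WT cords, with a median log2 fold change of 0.13, where 53.75% of all tested genes were higher and their median was 0.01. The test called 1 of the 6 higher, against 0.0884% of all genes, and 5 of the 6 (all but Hars) were higher with an unadjusted p under 0.05, against 3.62% of all genes. The 6 were chosen with earlier results of these data known. Their levels also varied together across libraries (Pearson's r up to 0.88 with genotype means removed), so they are not independent counts. The CPM ranges of the 2 groups overlapped for each of the 6, and 0.124% of all genes had ranges that did not overlap. Each of the 6 was also higher in E196K/E196K than in WT libraries within each of the 3 title prefixes, with differences from 0.01 (Hars in 39992) to 0.25 (Aars in 40411); the prefix 39992 held a single WT library. Leaving out replicate 3 raised the estimates of all 6, to between 0.07 for Hars and 0.19 for Aars. Sums of cell type markers overlapped between the groups, and their differences were not tested. The 4 motor neuron markers summed to between 74.5 and 116.0 CPM (median 98.0) in E196K/E196K cords and between 102.4 and 132.0 CPM (median 111.5) in WT cords, and the oligodendrocyte sum had medians of 17160 and 18270 CPM in the same groups. The medians in those groups were 2829 and 2933 CPM for neuron, 4555 and 4858 CPM for astrocyte, 174.1 and 175.2 CPM for microglia and 178.1 and 175.0 CPM for endothelial markers. Their part in the synthetase values was not tested. E196K/E196K cords compared with E196K/+ cords gave the same sign for all 6, with log2 fold changes of 0.15 for Wars, 0.13 for Aars, 0.12 for Gars, 0.10 for Mars, 0.08 for Yars and 0.02 for Hars. None of the 6 passed edgeR's test there (0.106% of all genes did), each had overlapping ranges (0.23% of all genes did not), and 5 were higher with an unadjusted p under 0.05 (4.55% of all genes). Wars passed there under DESeq2 (adjusted p = 0.00264) and under edgeR without replicate 3 (adjusted p = 0.00795). These comparisons share the E196K/E196K libraries.

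In E196K/+ cords over WT the log2 fold changes were 0.05 for Mars, 0.04 for Aars, 0.03 for Hars, 0.02 for Yars, 0.02 for Wars and -0.02 for Gars, each with an adjusted p of 1. The test called 0 of the 6 and 0 of all genes, and 0 of the 6 had an unadjusted p under 0.05, against 3.41% of all genes; DESeq2 also called 0 of the 6. The ranges of the 2 groups overlapped for each of the 6 (0.141% of all genes had ranges apart). The 95% intervals reached from -0.05 to 0.09 for Wars, from -0.06 to 0.09 for Yars and from -0.11 to 0.08 for Gars, so a difference as large as the 0.17 of Wars in E196K/E196K cords lay outside that of Wars. With the number of E196K alleles as a numeric term in edgeR, the fitted slope of Wars was 0.09 per allele (SE 0.0166, adjusted p = 0.0191). Those of the other 5 ran from 0.02 (Hars) to 0.09 (Aars) with adjusted p from 0.102 to 0.75. That test called 0.1% of all genes. For Wars the steps were unequal, with 0.02 from WT to E196K/+ and 0.15 from E196K/+ to E196K/E196K, so the slope is no equal change per allele. The call of Wars was lost with the title prefix as a term (0.08, adjusted p = 0.164) and in prefixes 40411 and 40412 alone (0.08, adjusted p = 0.217), and the alleles were unevenly spread over the prefixes. It was also lost when E196K/E196K replicate 1, 4, 5 or 6 or WT replicate 3 or 5 was left out, with adjusted p between 0.0529 and 0.0897. Without E196K/E196K replicate 3 both Wars (0.10, adjusted p = 0.00246) and Aars (0.10, adjusted p = 0.00834) passed. DESeq2 on all libraries called Wars, Aars (adjusted p = 0.0159) and Mars (adjusted p = 0.0335), and edgeR without WT replicate 4 also called these 3.

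**Figure D2:**
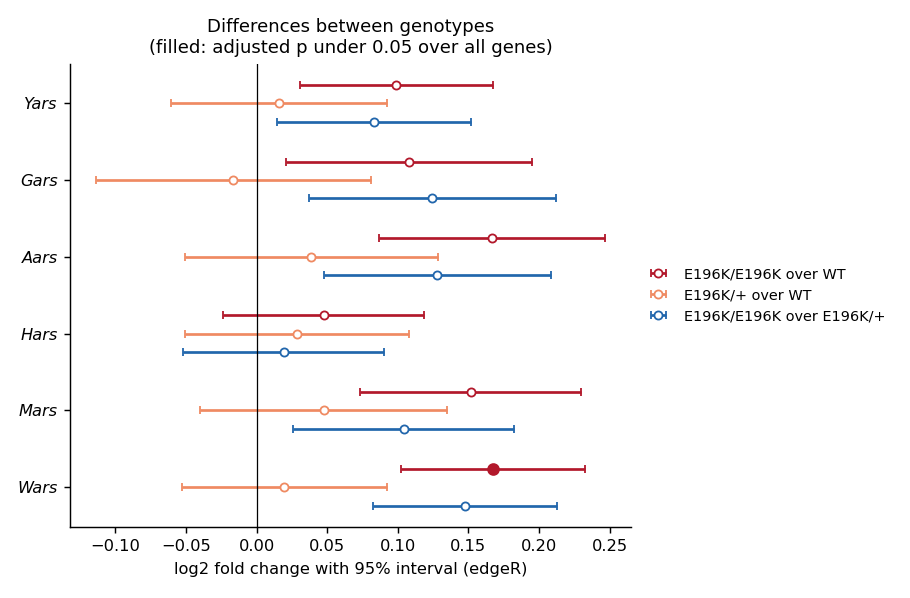
Log2 fold change of each gene with its 95% interval from edgeR for E196K/E196K over WT, E196K/+ over WT and E196K/E196K over E196K/+; a filled point has an adjusted p under 0.05 over all genes. The only filled point is Wars in E196K/E196K over WT (0.17), and every interval of E196K/+ over WT includes 0.

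Per length of transcript, the 6 genes stood in a stable order at the ends and a mixed one in the middle. Gars was highest, with 125 ± 5.78 TPM in E196K/E196K cords, 116 ± 13.2 TPM in E196K/+ cords and 113 ± 9.85 TPM in WT cords (SD, n = 10, 6 and 6). Yars followed with 109.6 ± 8.09, 99.4 ± 7.00 and 97.9 ± 2.73 TPM in the same groups. Their ranges overlapped, although Gars exceeded Yars in all 10 E196K/E196K, 5 of 6 E196K/+ and all 6 WT libraries. Hars, Wars and Aars lay close together, at 87.4, 94.9 and 90.3 TPM in E196K/E196K cords, 86.8, 85.9 and 82.9 TPM in E196K/+ cords, and 82.5, 82.3 and 78.6 TPM in WT cords. Mars was lowest, with 37.1 ± 2.42, 34.1 ± 2.90 and 31.9 ± 2.90 TPM, and its highest library lay below the lowest library of any of the other 5. Hars exceeded Wars in 0 of 10 E196K/E196K libraries, against 3 of 6 E196K/+ and 3 of 6 WT libraries, which was not tested. Among the 21 cytosolic synthetases, by mean TPM in WT, Gars ranked 3, Yars 4, Hars 5, Wars 6, Aars 8 and Mars 15.

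The 6 genes together summed to 544.6 ± 25.5 TPM in E196K/E196K cords, 504.8 ± 37.5 TPM in E196K/+ cords and 486.5 ± 26.0 TPM in WT cords. The 15 other cytosolic synthetases summed to 1042 ± 41.0, 1025 ± 41.2 and 984.3 ± 15.8 TPM in the same groups. On log2(TPM + 1), the median of all tested genes over WT was 0.0373 in E196K/E196K cords and 0.0425 in E196K/+ cords. Differences between these sums were not tested. The 6 genes held 34.3% ± 0.511 of all cytosolic synthetase TPM in E196K/E196K cords, 33.0% ± 0.84 in E196K/+ cords and 33.1% ± 1.21 in WT cords, so the shares overlapped. Within the 6, the share of Hars was 16.1% ± 0.406, 17.2% ± 0.746 and 16.97% ± 0.651 in the same groups. Without replicate 3, the 6 genes in E196K/E196K cords summed to 547.7 ± 24.8 TPM and held 34.4% ± 0.504, and the share of Hars was 16.1% ± 0.38.

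**Figure D3:**
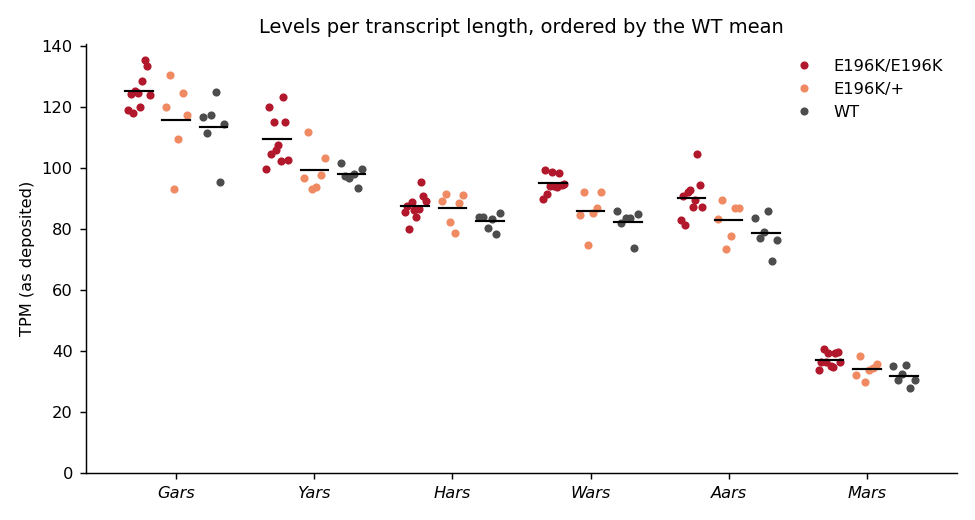
TPM of each gene in every library, in order of the WT mean, with E196K/E196K left of E196K/+ and WT; lines give group means. Gars and Yars lie on top, Hars, Wars and Aars overlap, and all Mars libraries lie at or below 40.6 TPM.

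The mean transcript length that the counting program assigns to a gene moves when its mix of transcripts moves. Gars (2390 bases) and Hars (1987 bases) had a single transcript in the files, and their length was constant. The length of Yars averaged 2180 ± 89.8 bases in E196K/E196K cords, 2268 ± 51.6 bases in E196K/+ cords and 2213 ± 60.8 bases in WT cords. It was shortest in E196K/E196K replicate 2 (2030 bases). The log2 ratio of E196K/E196K over E196K/+ was -0.06 (SE 0.0249, p = 0.0305) and did not pass over the 10857 genes with varying length (limma, adjusted p = 1). None of Yars, Wars, Mars and Aars was called in any of the 3 comparisons, and neither was any other gene (0.0% called). An unadjusted p under 0.05 was found for 4.59% of genes in E196K/E196K over WT, 3.88% in E196K/+ over WT and 4.52% in E196K/E196K over E196K/+, and among these 4 genes only for Yars in the last of them.

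The remaining synthetases give the background for the 6. Among the 15 other cytosolic genes, 13 were higher in E196K/E196K than in WT cords, where 53.75% of all tested genes were higher. Their median log2 fold change was 0.06. Of the 15, 5 had an unadjusted p under 0.05 and 1 was called, where 3.62% of all genes were higher at an unadjusted p under 0.05 and 0.0943% were called. The called gene was Cars, for cysteine, which rose to 44.4 ± 1.51 CPM in E196K/E196K cords, against 38.8 ± 1.16 CPM in WT cords (log2 fold change 0.19, SE 0.0303, adjusted p = 0.00215), and all 10 E196K/E196K libraries lay above the highest WT library. Vars, for valine, had 0.14 (adjusted p = 0.643) and Rars, for arginine, 0.11 (adjusted p = 0.159). For Rars, too, all 10 E196K/E196K libraries lay above the highest WT library. Among all genes, 0.124% had ranges that did not overlap between these groups. At the low end stood Dars, for aspartate, with -0.04, Farsb, a subunit of the phenylalanine enzyme, with -0.01 and Tarsl2, a second threonine enzyme, with 0.01. Whether the 6 differed from these 15 as a group was not tested.

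Of the 17 mitochondrial synthetases, 11 were higher in E196K/E196K than in WT cords, where 53.75% of all tested genes were higher. Their median log2 fold change was 0.03, against 0.01 for all tested genes. The test called 0 of them, against 0.0943% of all genes, and 2 had an unadjusted p under 0.05, both lower. The mitochondrial partners of 5 of the 6 genes were measured, since Gars serves both compartments. Yars2, Aars2 and Hars2 each had a log2 fold change of 0.03. Wars2 averaged 7.76 ± 0.482 CPM in E196K/E196K cords and 8.48 ± 0.576 CPM in WT cords (-0.13, p = 0.0456, adjusted p = 0.815), and Mars2 7.90 ± 0.617 and 8.68 ± 0.474 CPM in the same groups (-0.14, p = 0.0293, adjusted p = 0.815). The estimates for Wars and Mars and for their mitochondrial partners thus had opposite signs, and only that of Wars passed.

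**Figure D4:**
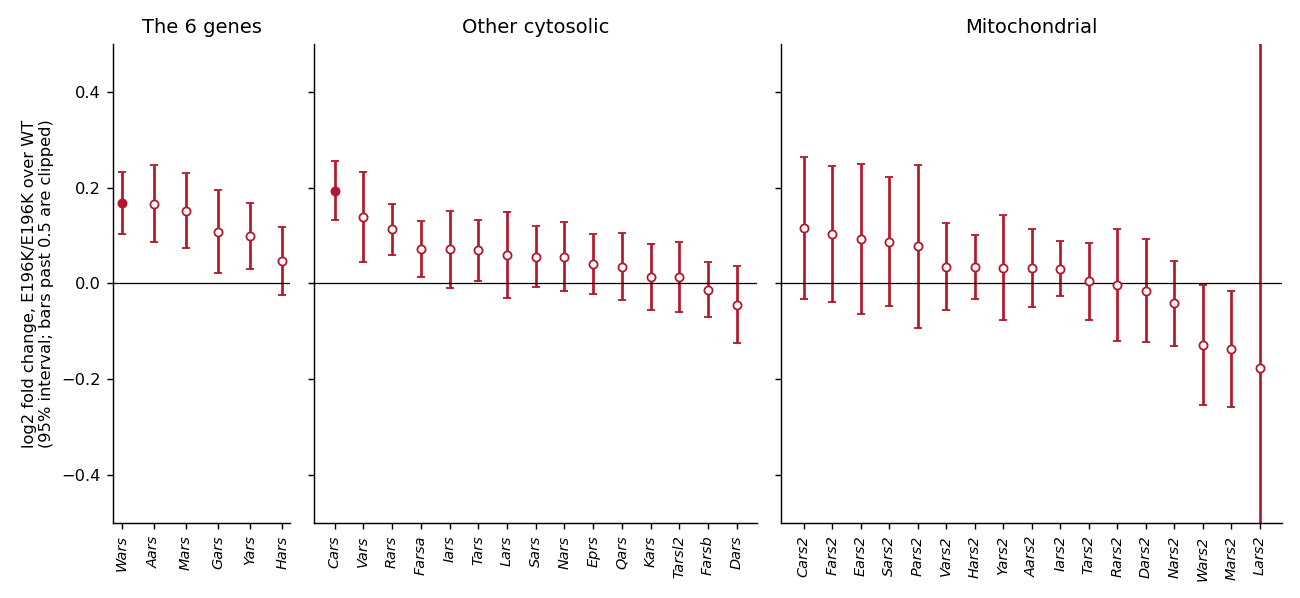
Log2 fold change of E196K/E196K over WT with its 95% interval for the 6 genes, the other 15 cytosolic synthetases and the 17 mitochondrial synthetases, each in order of size; filled points were called, and the bar of Lars2 runs past the axis. Wars (0.17) and Cars (0.19) are the only filled points.

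Atf4 itself rose, at 90.6 ± 5.36 CPM in E196K/E196K cords and 77.3 ± 2.99 CPM in WT cords (log2 fold change 0.23, SE 0.0383, adjusted p = 0.00461). In E196K/+ cords it averaged 85.5 ± 3.86 CPM, 0.15 above WT on the log2 scale (p = 0.00221, adjusted p = 1). Of 34 further ATF4 target genes, a list that holds no synthetase and was drawn up with results of these libraries known, 29 were higher in E196K/E196K than in WT cords. Their median was 0.20, against 0.01 for all tested genes, of which 53.75% were higher. The test called 7 of the 34, all higher, where 0.0884% of all genes were called higher. The called genes were Fgf21, Adm2 and Gdf15, which encode secreted hormones, Slc7a1, an amino acid carrier, Chac1, a glutathione-degrading enzyme, Aldh18a1, of proline synthesis, and Sesn2, a leucine sensor. Fgf21, Adm2 and Gdf15 averaged 3.34, 0.36 and 0.36 CPM in E196K/E196K cords. In E196K/+ cords they averaged 0.067, 0.015 and 0.045 CPM, and in WT cords 0, 0.005 and 0.052 CPM. These hormone genes thus passed the filter on low counts through the group where they were high, so their calls add no support to the count. The scaffold genes of the multi-synthetase complex that holds the methionine enzyme were close to WT, with 0.02 for Aimp1, 0.01 for Aimp2 and -0.05 for Eef1e1. Eif2ak4, which encodes GCN2, had 0.04 (adjusted p = 0.828).

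Across libraries 5 of the 6 genes varied less than the median gene and Gars about as much. Within genotypes the SD of log2 CPM was 0.0587 for Wars, 0.0626 for Yars, 0.0656 for Hars, 0.0724 for Mars, 0.0772 for Aars and 0.0859 for Gars, where the median of 10323 genes with at least 10 CPM was 0.0855. Those genes were not matched to the 6 for level. In WT the mean TPM of each but Mars (71.1%) lay above that of at least 88.3% of tested genes. After each genotype's mean was removed, Pearson's r over the 22 libraries ran from 0.16 (Hars with Mars) to 0.88 (Yars with Aars). Aars stood at rank 4 of 10322 genes by likeness to Yars. Without E196K/E196K replicate 3 the r of Yars with Aars was 0.81, that of Hars with Wars was 0.14, against 0.48 with it, and that of Hars with Gars was 0.12, against 0.36 with it. The closest pair without it was Aars with Mars (0.84). The other genes most like Yars were Copg1 (r = 0.88), Spock2 (0.88), Cabp7 (0.88) and Psmd2 (0.88). For Wars they were Necab3 (0.88), Exoc6b (0.88) and Nacc2 (0.86), for Mars Mrps7 (0.82), Hk1 (0.80) and Ogdh (0.79), for Gars Ube2o (0.93), Atp6v0a1 (0.92) and Tmem59l (0.90), for Aars Tmem179 (0.92), Ccdc136 (0.90) and Atp5b (0.89), and for Hars Cend1 (0.89), Hspa9 (0.83) and Vdac3 (0.83). Without E196K/E196K replicate 3 the r of Hars was 0.78 with Cend1, 0.71 with Hspa9 and 0.69 with Vdac3. That of Yars was 0.82 with Copg1, 0.81 with Spock2, 0.86 with Cabp7 and 0.79 with Psmd2. That of Wars was 0.87 with Necab3, 0.81 with Exoc6b and 0.80 with Nacc2. The genes named for Gars then had 0.90 to 0.93, those for Aars 0.85 to 0.90 and those for Mars 0.80 to 0.82. These values describe libraries that share depth and tissue composition, and carry no test.

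**Figure D5:**
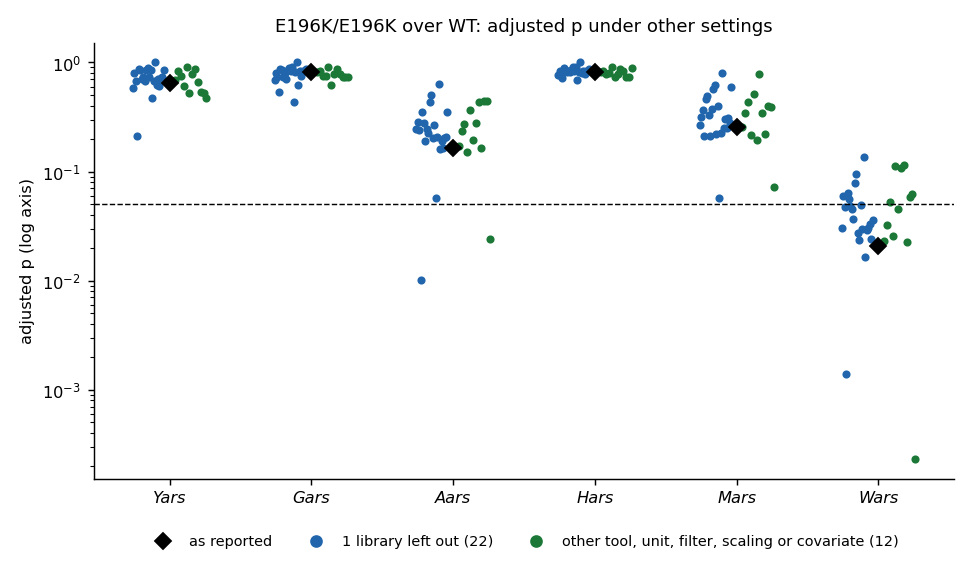
Adjusted p of each gene in E196K/E196K over WT, on a log axis, as reported (diamonds), with each of the 22 libraries left out (blue) and under 12 other tools, units, filters, scalings or covariates (green); the dashed line is 0.05. Wars lies below the line in the reported fit and on both sides of it otherwise, from 0.000232 to 0.136, Aars falls below it in 2 settings, and Yars, Gars, Hars and Mars in none.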

How the data were processed

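Libraries were placed in groups by the genotype in the labels, and their replicate numbers, given by accession order, pair no samples. Per the labels' protocols, RNA was isolated with TRIzol and miRNeasy kits including DNase, polyA-selected, and made into stranded KAPA libraries read as paired ends. The authors deposited, per the file headers, RSEM gene tables with expected counts, TPM and mean transcript length per Ensembl gene. RSEM 1.2.12 and Bowtie2 2.2.0 are named in the submitters' processing notes; of the genome build, the annotation and the strand setting, the sources used here say nothing. Among the deposited expected counts, 14.41% to 16.23% per library were not whole as printed, and all were rounded. TPM values as deposited, which RSEM scales to length and a fixed total, served for levels between genes and as an alternative test on log2(TPM + 1) and log2(TPM + 0.1) with limma 3.58.1. The deposited lengths were tested on the log2 scale with limma. The deposited FPKM values were not used.

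All 22 libraries were fitted with edgeR 4.0.16 in R 4.3.3 (filterByExpr, TMM, robust quasi-likelihood), with Benjamini-Hochberg adjustment over 16974 genes at 0.05; the fit was tested on simulated counts. Standard errors of fold changes came from the F statistic. DESeq2 1.42.0, limma voom, other scalings, filters and covariates, and each library left out were alternatives. Symbols were matched for 37607 of 38924 IDs, and positions and overlaps are those of GENCODE M21 (GRCm38) for the same IDs. The deposited lengths of Gars (2390 bases) and Hars (1987 bases) differ from those of their M21 transcripts (2380 and 1989 bases). The authors' annotation therefore differed from M21 at least there, and overlaps between genes may differ in it too. Intervals rest on the spread between libraries. The 6 genes and all lists were chosen with earlier results of these data known. By rule, the text names the 6 genes, their mitochondrial partners, other cytosolic synthetases that were called or had the 3 highest or 3 lowest fold changes, complex and stress-sensor genes, called ATF4 targets, the genes most like each of the 6 in CPM, and tissue markers; the overlapping neighbours were added by position. One listed marker is not reported here and is left out of its sum.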

Additional observations from a re-analysis of the deposited data

Results flagged for a closer look

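In each genotype, the highest and lowest library of each of the 6 genes were set against the rest of their group by Dixon's criterion, over 30 groups of values, of which chance flags about 1 in 20. It picked out 3 libraries. Hars was 76.6 CPM in E196K/E196K replicate 3, where the next lowest library of that genotype had 85.1 CPM and the highest 92.7 CPM; this library is the one with 615.0 CPM of Schwann cell markers, and the part of that tissue in the Hars value was not tested. Hars was 78.4 CPM in WT replicate 3, where the next lowest WT library had 84.3 CPM and the highest 87.1 CPM. The mean transcript length of Yars was 2170 bases in E196K/+ replicate 3, where the next shortest E196K/+ library had 2261 bases and the longest 2314 bases.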

How the results depend on the processing

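No paired analysis was possible because the labels give no replicate numbers shared between genotypes. The number of the 6 genes called in E196K/E196K over WT, 1 as reported, was 0 without the filter on low counts, with the title prefix as a covariate, in prefixes 40411 and 40412 alone, with only the groups compared in the fit, and on log2(TPM + 1) and log2(TPM + 0.1); it was 2 with DESeq2 (Wars and Aars) and 0 to 2 with 1 library left out. For E196K/E196K over E196K/+, 0 as reported, it was 1 with DESeq2 (Wars) and 0 to 1 with 1 library left out. For the allele number, 1 as reported, it was 0 with the prefix as a covariate or in prefixes 40411 and 40412 alone, 3 with DESeq2 (Wars, Aars and Mars) and 0 to 3 with 1 library left out, the 3 without WT replicate 4. For E196K/+ over WT and for transcript length it was 0 throughout. Leaving out libraries or prefixes fits fewer samples; other causes were not tested. All 6 fold changes of E196K/E196K over WT kept their sign in the 34 alternatives, with Wars between 0.15 and 0.21; Yars, 0.10 as reported, was 0.16 on TPM, and Hars, 0.05 as reported, was 0.08 on TPM and 0.03 without WT replicate 3. In E196K/+ over WT the sign turned for Yars without E196K/+ replicate 2 (-0.00467), and for Gars without WT replicate 4 (0.00546), without E196K/+ replicate 3 (0.0205), on log2(TPM + 1) (0.0267) and on log2(TPM + 0.1) (0.0269); with 1 library left out Yars ran from -0.00467 to 0.0266 Gars from -0.0486 to 0.0205, Aars from 0.0192 to 0.0609, Hars from 0.00806 to 0.0453, Mars from 0.027 to 0.0733 and Wars from 0.00231 to 0.0358. On log2(TPM + 0.1) that comparison gave 0.0766 for Aars, 0.0726 for Hars, 0.0958 for Mars and 0.0596 for Wars. The median of all tested genes in that comparison was 0.0425 on log2(TPM + 1) and 0.0476 on log2(TPM + 0.1), against 0.00268 as reported. In E196K/E196K over WT that median was 0.0373 and 0.0429 on the same scales, against 0.00652 as reported. The 6 genes had at least 1301 counts in every library; counting error and spread between libraries were not separated.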
